A study of Rattus norvegicus with 18 samples.

Results

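The axon growth cytoskeleton genes described here are 10 genes whose proteins act on microtubules, actin or the membrane of growing axons, namely *Gas7*, *Myo10*, *Stmn1*, *Stmn2*, *Stmn3*, *Stmn4*, *Tubb3*, *Dpysl3*, *Map1b* and *Basp1*. They were taken by gene symbol from the rat mRNA count table, and 8 of the 10 had a row among its 15075 RefSeq identifiers. *Gas7* and *Myo10* were chosen by their lower counts in bPYX+GFP than in naïve rats, in earlier results of these same rats, so their values are given without a test. The other members were listed for their known roles. No row was matched to *Stmn3*, and *Stmn4* had 6 identifiers in the counts of each rat with 0 reads over all rats. In HTSeq counting, a read that overlaps several listed identifiers is set aside as ambiguous. A level for these 2 stathmins is therefore not given.

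A growth cone is the motile tip of an axon. Its advance depends on microtubules that grow, shrink and are bundled in the axon shaft, and on actin filaments that push out filopodia and lamellipodia at the edge. Sensory neurons of the dorsal root ganglion (DRG) keep making many of these proteins in adulthood, and several of them are known to increase when a peripheral nerve is cut.

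The mRNA of C6-C8 DRG was sequenced in 18 adult Lister hooded rats, 6 in each group. Each library held the pooled ganglia of 1 rat from its treated side. The naïve rats (41, 42, 43, 44, 45 and 49) had no operation and no vector. The bPYX+GFP rats (5, 15, 18, 21, 52 and 57) had bilateral pyramidotomy, a transection of the left and right corticospinal tract at the medullary pyramids, and an injection into forelimb flexor muscles on 1 side of AAV1, an adeno-associated viral vector, carrying GFP under a CMV promoter. The bPYX+NT3 rats (2, 11, 17, 23, 39 and 40) had the same injury and the same vector carrying human neurotrophin-3 (NT3), a growth factor for sensory neurons that include muscle afferents, again under CMV. Ganglia of the injured groups were taken 10 weeks after injury. The injury, the vector and the operation therefore cannot be told apart in bPYX+GFP against naïve rats, and only the transgene separates the 2 injured groups. The corticospinal tract does not arise from the DRG, so the axons cut by the injury were not those of the cells sampled. Whole ganglia were homogenized, so a lower level of a gene in fewer cells and a lower level per cell cannot be told apart.

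The libraries held 10057787 to 16002410 read pairs on genes. Rats 57 (bPYX+GFP) and 11 (bPYX+NT3) stood apart with 54.0% and 53.9% of read pairs assigned to no gene, against 56.9% to 59.1% in the other 16 rats, and results that rest on them are given with and without them. Of the 9 neuron markers with a row, 8 were detected in every rat and the identifier of *Snap25* had 0 to 5.46 normalized counts. Their summed level was 38469 to 48510 normalized counts in naïve, 41355 to 61031 in bPYX+GFP and 40619 to 64849 in bPYX+NT3 rats. Of this sum, 66.1% was *Nefh*, the heavy neurofilament subunit. Skeletal muscle markers summed to no more than 67.2 normalized counts in any rat and spinal cord glia markers to no more than 191. A normalized count is a read count scaled by TMM (edgeR's trimmed mean of M-values) to the average library. The unit compares 1 gene between rats, not 1 gene with another, because transcript lengths were not used.

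*Gas7* (NM_053484, rat chromosome 10) encodes an F-BAR protein that binds actin and membranes and takes part in neurite outgrowth. The naïve rats had 5830 to 7675 normalized counts of *Gas7* with a median of 6716. The bPYX+GFP rats had 4505 to 6005 with a median of 5151, and the bPYX+NT3 rats had 5420 to 8516 with a median of 5861. In the bPYX+GFP group, only rat 52 (6005) reached into the naïve range, above naïve rat 41 (5830). The bPYX+NT3 group was uneven, with rat 17 at 8516, above every other rat of the 18, and the remaining 5 between 5420 and 6450. The naïve mean was 6702 ± 598 (SD, n = 6), the bPYX+GFP mean 5260 ± 561 and the bPYX+NT3 mean 6310 ± 1131. The fitted log2 fold change was -0.34 ± 0.0764 (SE) in bPYX+GFP against naïve rats, the contrast on which the gene was chosen. It was -0.09 ± 0.103 in bPYX+NT3 against naïve and 0.26 ± 0.105 in bPYX+NT3 against bPYX+GFP rats. Without rat 17 these last 2 values were -0.18 and 0.16. The value in the choosing contrast ran from -0.39 to -0.30 over the 12 fits that left out 1 rat, and was -0.31 without rat 57.

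*Myo10* (NM_001107657, chromosome 2) encodes myosin X, a motor that moves to the tips of filopodia. The naïve rats had 535 to 828 normalized counts with a median of 684, the bPYX+GFP rats 440 to 618 with a median of 493, and the bPYX+NT3 rats 507 to 921 with a median of 574. Rat 57 (618) was the bPYX+GFP rat with the highest level, and the other 5 lay between 440 and 514, under the lowest naïve rat. Rat 17 (921) was again the bPYX+NT3 rat with the highest level. The naïve mean was 689 ± 124 (SD, n = 6), the bPYX+GFP mean 502 ± 62.8 and the bPYX+NT3 mean 632 ± 155. On the log2 scale the difference was -0.45 ± 0.121 (SE) in bPYX+GFP against naïve, the choosing contrast, -0.12 ± 0.153 in bPYX+NT3 against naïve and 0.33 ± 0.142 in bPYX+NT3 against bPYX+GFP rats. Without rat 57 the first was -0.52, and without rat 17 the others were -0.25 and 0.19. Over the 12 fits that left out 1 rat, the first ran from -0.52 to -0.39. As no threshold on size fixed the list, the nearest value outside the chosen pair was that of *Stmn1* below, at -0.12 in the same contrast. All 3 comparisons share rats, so the values of *Gas7* and *Myo10* in bPYX+NT3 rats are not independent of the choice. Summed Schwann cell markers (10 of 10 with a row) were 47635 to 66184 normalized counts in naïve (median 58080), 42237 to 53130 in bPYX+GFP (median 47446) and 46646 to 52910 in bPYX+NT3 rats (median 48769), so that the median was lower in both injured groups. Summed fibroblast markers (7 of 8 with a row) were 28758 to 38990 (median 34867), 26602 to 34519 (median 29961) and 21394 to 37094 (median 26370) in the same order. The part of either in the *Gas7* and *Myo10* values was not tested.

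**Figure D1:**
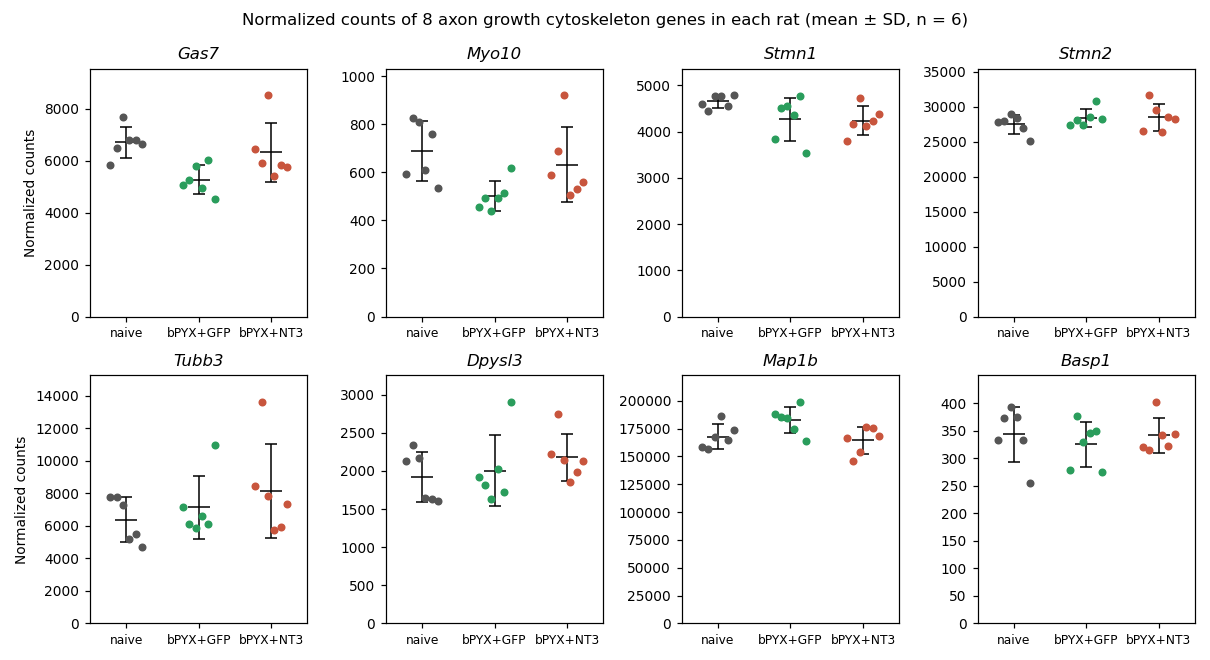
Normalized counts of the 8 measured genes in each of the 18 rats (points; vertical axes in normalized counts and starting at 0), with the mean and SD of each group of 6 as bars. The means of *Gas7* and *Myo10* are lowest in bPYX+GFP rats, while *Tubb3* and *Dpysl3* each have 1 rat far above its group in both injured groups (rat 57 at 10995 and rat 11 at 13627 for *Tubb3*).

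Promoter sequences are shown for the genes on which the description turns. A RefSeq GRCr8 promoter entry matched 7 of the 10 members, and *Gas7*, *Stmn2* and *Stmn4* had none. The 250 bases before the start were searched on both strands for GGGCGG (the GC box), TATAAA (the TATA box), CCAAT (the CCAAT box) and CACGTG (the E-box). Over 33469 rat promoters of that length, 30.5% held GGGCGG, 12.9% TATAAA, 34.0% CCAAT and 5.59% CACGTG. In the lines below, capitals mark the matches. The window of *Myo10* (chr2:77831282-77831531, plus strand) held 5 GC boxes, the last pair of which overlap, and was 67.2% G or C against a median of 51.2% over all promoters.
Myo10: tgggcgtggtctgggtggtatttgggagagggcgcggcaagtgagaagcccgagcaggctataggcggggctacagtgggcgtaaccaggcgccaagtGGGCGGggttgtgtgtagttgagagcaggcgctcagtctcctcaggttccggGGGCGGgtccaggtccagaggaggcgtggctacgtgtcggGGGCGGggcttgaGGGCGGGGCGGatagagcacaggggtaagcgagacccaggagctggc
The window of *Tubb3* (chr19:68365437-68365686, plus strand) held 2 GC boxes and 1 CCAAT box, read on the other strand as ATTGG, and was 68.0% G or C. It held 21 CpG dinucleotides against a median of 5.
Tubb3: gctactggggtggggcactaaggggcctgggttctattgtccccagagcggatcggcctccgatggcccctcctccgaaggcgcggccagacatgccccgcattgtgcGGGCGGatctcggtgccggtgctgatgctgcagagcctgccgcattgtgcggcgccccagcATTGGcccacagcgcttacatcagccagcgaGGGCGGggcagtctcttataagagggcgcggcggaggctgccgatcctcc
The window of *Map1b* (chr2:32644472-32644721, minus strand) held 1 TATA box and none of the other 3 motifs, and was 63.6% G or C.
Map1b: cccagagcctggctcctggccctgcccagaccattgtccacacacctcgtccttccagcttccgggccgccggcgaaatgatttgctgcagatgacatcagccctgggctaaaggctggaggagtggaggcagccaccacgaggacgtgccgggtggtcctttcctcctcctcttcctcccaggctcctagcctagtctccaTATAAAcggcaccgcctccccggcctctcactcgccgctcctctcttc
The GC box was also found in the windows of *Stmn1*, *Stmn3*, *Basp1* and both listed starts of *Dpysl3*. The *Stmn1* window also held 1 CCAAT box and 2 E-boxes. These are matches of letters only, and no factor's binding was measured.

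The remaining 6 measured genes were tested in each comparison with edgeR's quasi-likelihood test. After Benjamini-Hochberg adjustment over all genes, 0 genes passed in any of the 3 comparisons, members included. The study's own rule calls a gene at an unadjusted p under 0.05, and by it 3.25% of the 11601 genes tested were called between bPYX+GFP and naïve rats (2.52% lower and 0.733% higher), and 0 of the 6 members. Leaving out rat 44, 52 or 57 made that count 1, namely *Map1b* without rats 44 or 57 and *Stmn1* without rat 52. The calls over all genes went from 377 to 348, 454 and 595 without rats 44, 52 and 57. Between bPYX+NT3 and naïve rats, 6.01% of 11693 genes were called, 2.92% lower and 3.09% higher, and 1 of the 6 members, *Stmn1*, was among the lower ones. Between bPYX+NT3 and bPYX+GFP rats, 1.73% of 11623 genes were called, 0.654% lower and 1.08% higher, and 1 of the 6 members, *Map1b*, was among the lower ones. With 6 members, 1 call is 16.7%, above the share of all genes in these 2 comparisons. A single gene is too few to judge by, and it is not read as a result about the list. In bPYX+NT3 against naïve rats, *Dpysl3* was called once rat 42 was left out (0.26), and *Tubb3* once rat 23 was left out (0.44). The calls over all genes also rose, from 703 to 1032 without rat 42 and to 1387 without rat 23. DESeq2 called 16 genes after adjustment in the first comparison and edgeR's likelihood ratio test 13, and both called 0 in the other 2.

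**Figure D2:**
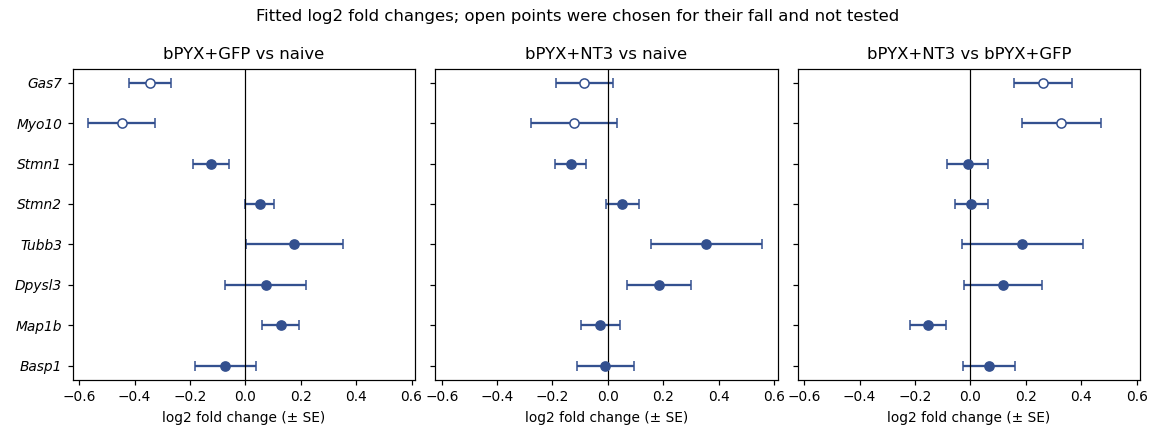
Fitted log2 fold change (horizontal axis) with its SE for the 8 measured genes in the 3 comparisons, with open points for *Gas7* and *Myo10*, which were chosen for being lower after injury and not tested. *Stmn1* lies left of 0 against naïve rats in both injured groups, and *Map1b* lies to the right in bPYX+GFP against naïve (0.13) and to the left in bPYX+NT3 against bPYX+GFP (-0.15).

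The stathmins bind tubulin dimers and favour microtubule disassembly. *Stmn1* (NM_017166, chromosome 5) encodes stathmin, found in many cell types. Its naïve values were close together, at 4452 to 4788 normalized counts with a median of 4687. The bPYX+NT3 rats had 3788 to 4731 with a median of 4194, and the bPYX+GFP rats 3545 to 4765 with a median of 4433. In the bPYX+NT3 group 5 of 6 rats lay below every naïve rat, and rat 17 (4731) lay within the naïve range. Their log2 fold change from naïve rats was -0.13 ± 0.0556 (SE), with a two-sided exact permutation p of 0.0130 and an adjusted edgeR p of 0.607. The call was made in 7 of the 12 fits that left out 1 rat, and was lost without naïve rats 43, 44 or 49 or bPYX+NT3 rats 2 or 23, with log2 fold changes between -0.16 and -0.10 over all 12. In bPYX+GFP rats only 3 of the 6 lay below the naïve range (rat 57 at 3545, rat 5 at 3844 and rat 21 at 4351). Their log2 fold change was -0.12 ± 0.0653 with an exact permutation p of 0.0693. Without rat 57 it was -0.08, and over the 12 fits that left out 1 rat it ran from -0.16 to -0.08. The injured groups had near-equal means of *Stmn1*, 4263 ± 470 and 4236 ± 312 (SD, n = 6), and a log2 fold change of -0.01 with an interval (± 2 SE) of -0.16 to 0.14.

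*Stmn2* (NM_053440, chromosome 2) encodes SCG10, the neuronal stathmin of growth cones. Its level varied little, from 25033 to 28875 normalized counts in naïve (median 27903), 27339 to 30849 in bPYX+GFP (median 28131) and 26427 to 31628 in bPYX+NT3 rats (median 28391). The ranges of the 3 groups overlapped. The log2 fold changes were 0.05 ± 0.0535, 0.05 ± 0.0596 and 0.00 ± 0.0595 (SE) for bPYX+GFP against naïve, bPYX+NT3 against naïve and bPYX+NT3 against bPYX+GFP, with exact permutation p of 0.342, 0.364 and 0.929. The intervals (± 2 SE) lay within -0.12 to 0.17 in all 3, so a change of *Stmn2* larger than that was outside every interval.

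*Tubb3* (NM_139254, chromosome 19) encodes class III beta-tubulin, the neuronal subunit of microtubules. The naïve rats had 4692 to 7786 normalized counts with a median of 6397, the bPYX+GFP rats 5893 to 10995 with a median of 6372, and the bPYX+NT3 rats 5725 to 13627 with a median of 7580. Rat 57 stood above the other 5 bPYX+GFP rats (5893 to 7162) and rat 11 above the other 5 bPYX+NT3 rats (5725 to 8479). Naïve rats 41, 42 and 43 had 7767, 7786 and 7299, and naïve rats 44, 45 and 49 had 5224, 5494 and 4692, with no value between. *Tubb3* differed by a log2 fold change of 0.18 ± 0.174 (SE) in bPYX+GFP against naïve (exact permutation p = 0.450), 0.36 ± 0.201 in bPYX+NT3 against naïve (p = 0.180) and 0.19 ± 0.217 in bPYX+NT3 against bPYX+GFP (p = 0.509). Without rat 57 the first was 0.00, and without rat 11 the second was 0.15. The third ran from 0.35 without rat 57 to -0.03 without rat 11. No pair of groups was distinguishable in *Tubb3* by the exact test, and the SD over 6 rats was between 21.9% and 35.4% of the mean.

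*Dpysl3* (NM_012934, chromosome 18) encodes CRMP4, a collapsin response mediator protein that binds tubulin and actin and passes on guidance signals. The naïve rats had 1607 to 2341 normalized counts with a median of 1883, the bPYX+GFP rats 1629 to 2903 with a median of 1871, and the bPYX+NT3 rats 1849 to 2741 with a median of 2138. The rats that stood apart were those of *Tubb3*, with rat 57 at 2903 in bPYX+GFP and rat 11 at 2741 in bPYX+NT3. The naïve rats again fell apart, with rats 41, 42 and 43 at 2125, 2341 and 2166 and rats 44, 45 and 49 at 1640, 1629 and 1607. *Dpysl3* differed by a log2 fold change of 0.07 ± 0.146 (SE) in bPYX+GFP against naïve (exact permutation p = 0.755), 0.18 ± 0.116 in bPYX+NT3 against naïve (p = 0.167) and 0.12 ± 0.141 in bPYX+NT3 against bPYX+GFP (p = 0.364). Without rat 57 the first was -0.07, and over the 12 fits that left out 1 rat the second ran from 0.11 to 0.26. Between the injured groups rat 57 decided the outcome. Without it *Dpysl3* was higher with NT3 by 0.26 at an unadjusted edgeR p of 0.0167, while the number of all genes called went from 201 to 2291. Without both rats 11 and 57, a setting chosen after seeing the data, it was also called, higher by 0.18, and 1462 genes were called in all.

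*Map1b* (NM_019217, chromosome 2) encodes a microtubule-associated protein that keeps axonal microtubules dynamic. The naïve rats had 156256 to 186599 normalized counts with a median of 166109, the bPYX+GFP rats 164083 to 198810 with a median of 184767, and the bPYX+NT3 rats 146104 to 176644 with a median of 167770. In bPYX+GFP, 4 of the 6 rats lay above every bPYX+NT3 rat, and rats 21 (175018) and 57 (164083) lay within the bPYX+NT3 range. The lowest rats of both injured groups were rats 57 and 11, the pair with the highest *Tubb3* and *Dpysl3*. Between the injured groups *Map1b* differed by a log2 fold change of -0.15 ± 0.0643 (SE), with a two-sided exact permutation p of 0.0325 and an adjusted edgeR p of 0.851. This call was made in 5 of the 12 fits that left out 1 rat and was lost without bPYX+GFP rats 5, 15, 18 or 52 or bPYX+NT3 rats 2, 11 or 17, with log2 fold changes between -0.18 and -0.13 over all 12. Without both rats 11 and 57 it was -0.15 and still called. Against naïve rats the log2 fold change was 0.13 ± 0.0672 in bPYX+GFP (exact permutation p = 0.0628) and -0.03 ± 0.0693 in bPYX+NT3 (exact permutation p = 0.632).

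*Basp1* (NM_022300, chromosome 2) encodes a membrane protein of growth cones that binds acidic phospholipids. It had 255 to 394 normalized counts in naïve (median 352), 275 to 376 in bPYX+GFP (median 337) and 314 to 402 in bPYX+NT3 rats (median 333), and the 3 ranges overlapped. The log2 fold changes were -0.07 ± 0.110, -0.01 ± 0.103 and 0.07 ± 0.0928 (SE) for bPYX+GFP against naïve, bPYX+NT3 against naïve and bPYX+NT3 against bPYX+GFP, with exact permutation p of 0.561, 1.0 and 0.452. With 6 rats a group, the smallest p that the exact test can give is 0.00216.

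The members were next compared with each other over the 18 rats, after each rat's log2 CPM was centred on its group's mean, so that differences between groups do not enter. In all, 36 relations were computed, 28 between the genes and 8 with the no-feature share of the libraries. *Tubb3* and *Dpysl3* varied together, with Pearson's r = 0.93 and Spearman's rho = 0.92 (permutation p = 1e-05 for r, the smallest that 100000 permutations can give, and adjusted p = 0.00018). *Map1b* ran the other way, with r = -0.82 and rho = -0.78 against *Tubb3* and r = -0.79 and rho = -0.73 against *Dpysl3* (permutation adjusted p = 0.00156 for both values of r). Without rats 57 and 11, the 2 farthest from the median, these r were 0.91, -0.68 and -0.67.

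The same 3 genes followed the no-feature share, which is the percentage of a library's read pairs that mapped to introns or between genes rather than to a counted feature. It was 31.7% in rat 57, 30.8% in rat 11 and 32.5% to 34.6% in the other 16 rats. *Tubb3* had r = -0.96 and rho = -0.89 with this share, *Dpysl3* r = -0.91 and rho = -0.91, and *Map1b* r = 0.81 and rho = 0.75 (permutation adjusted p = 0.00018, 0.00024 and 0.00156 for r, and 0.00072, 0.00054 and 0.00806 for rho). Without rats 57 and 11, r was -0.90, -0.87 and 0.66. How many other genes vary this closely with *Tubb3* or with the share was not counted. The relations are therefore not read as particular to these 3 genes. In the naïve group alone, rats 41, 42 and 43 had shares of 32.5%, 33.0% and 33.3% and the higher *Tubb3*, and rats 44, 45 and 49 had 34.0%, 34.2% and 34.6% and the lower *Tubb3*. Single neuron markers, looked at after their sums were seen, did not move as 1 in these rats. In both rats 57 and 11, 5 of the 9 were above every other rat, among them *Nefh*, *Prph* (4503 and 5837 normalized counts against 1704 to 3560) and *Uchl1* (9562 and 10562 against 5305 to 8226). *Elavl4* (2236 and 2176 against 2161 to 2564), *Isl1* (642 and 590 against 554 to 751) and *Syt1* (1714 and 1387 against 1548 to 2224) were not. The part of the share of neurons in the levels of *Tubb3* and *Dpysl3* was not tested.

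**Figure D3:**
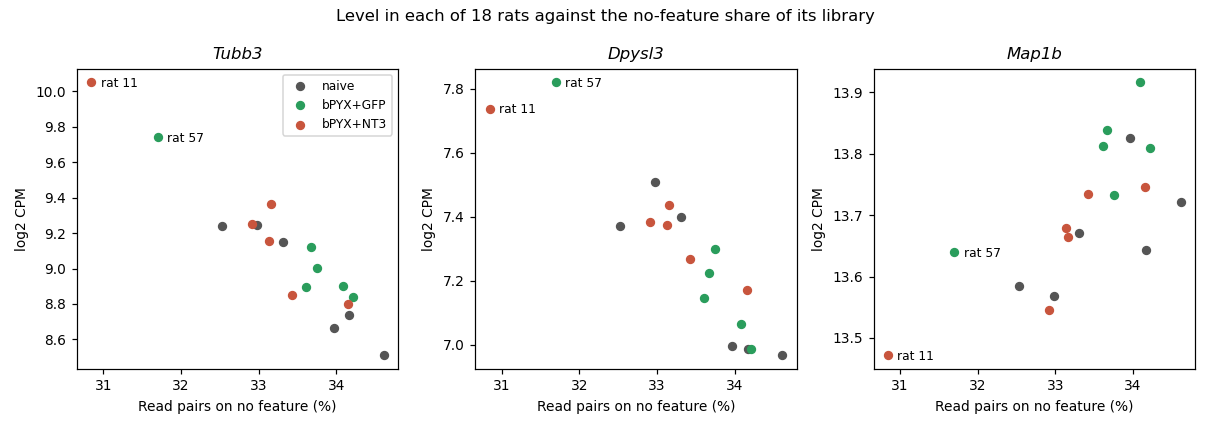
Log2 CPM (vertical axes) of *Tubb3*, *Dpysl3* and *Map1b* against the percentage of read pairs on no feature (horizontal axes), 1 point a rat, coloured by group. Levels of *Tubb3* and *Dpysl3* go down from rats 11 and 57 on the left to the rats with the highest share on the right, and that of *Map1b* goes up.

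When the no-feature share entered the fit as a covariate, the *Tubb3* log2 fold change was 0.13 in bPYX+GFP against naïve, 0.07 in bPYX+NT3 against naïve and -0.06 in bPYX+NT3 against bPYX+GFP rats. That of *Dpysl3* was 0.03 in bPYX+GFP against naïve and 0.05 in bPYX+NT3 against naïve. In the first of these comparisons 3 of the 6 members were then called, at unadjusted edgeR p of 0.0225 for *Stmn1* (-0.12), 0.0185 for *Tubb3* (0.13) and 0.0103 for *Map1b* (0.13), while the calls over all genes went from 377 to 848. The *Map1b* value between the injured groups was -0.11 with this covariate and still called. In bPYX+GFP against naïve rats the values of *Gas7* and *Myo10* moved little, to -0.34 and -0.47. In bPYX+NT3 against naïve rats *Gas7* was -0.08 with the covariate and -0.09 without it, and *Myo10* was -0.21 and -0.12. *Myo10* had r = -0.51 and rho = -0.60 with the share (permutation adjusted p = 0.108 for r and 0.0539 for rho).

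*Gas7* and *Myo10* were lower in the same contrast, but within groups their relation rested on single rats. Their r was 0.49 (rho = 0.32, permutation p = 0.0813 for r and adjusted p = 0.146). It was -0.003 without rats 43 and 17, the 2 farthest from the median of *Gas7*, and 0.71 without rats 11 and 57. *Gas7* had r = 0.62 with *Stmn1* (rho = 0.49), and *Stmn1* had r = 0.56 with *Basp1* (rho = 0.57), both at a permutation adjusted p of 0.0467 for r. By rank neither passed (permutation adjusted p for rho of 0.121 and 0.0539), and without the 2 farthest rats r was 0.55 and 0.47. *Myo10* had r = -0.64 with *Map1b* (rho = -0.66, permutation adjusted p = 0.0423 for r and 0.0359 for rho), and -0.54 without rats 57 and 17. Among 9830 genes with a mean of at least 50 normalized counts, the genes whose group-centred pattern was most like that of *Gas7* were *Map4k4* (r = 0.87), *Lhfpl2* (0.83) and *Ptprj* (0.81), and *Myo10* ranked 495. Those most like *Myo10* were *Atp2b4* (r = 0.91), the identifier NM_001108036 (0.89) and *Acvr1* (0.88), and *Gas7* ranked 1356.

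The wider axon cytoskeleton was read from 8 lists with 160 genes, of which 142 identifiers had a row and 134 were tested. Between bPYX+GFP and naïve rats, 3 of the 134 were called, 1 higher and 2 lower, which is 2.24% against 3.25% of all genes. *Srgap2*, an F-BAR regulator of neurite branching, had 528 to 589 normalized counts in bPYX+GFP and 603 to 676 in naïve rats with no overlap, and a log2 fold change of -0.16 ± 0.0535 (SE, exact permutation p = 0.00216). *Tuba1b*, an alpha-tubulin, was higher at 0.18 ± 0.0756 (exact permutation p = 0.0281). Both were named for being among the smallest edgeR p of the 134. Their exact permutation p come from the same rats and are not independent of that choice, as for the genes of smallest p in the other comparisons. Neither passed adjustment, with an edgeR adjusted p of 1.00 for both. The medians of the lists ran from -0.09 for growth-cone membrane proteins to 0.11 for neurofilaments and peripherin, against 0.01 for all genes.

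Between bPYX+NT3 and naïve rats, 9 of the 134 were called, 6 higher and 3 lower, which is 6.72% against 6.01% of all genes. Among the smallest p values were those of *Tuba8*, an alpha-tubulin (43.8 ± 10.9 normalized counts in bPYX+NT3 and 30.0 ± 4.71 in naïve rats, SD, log2 fold change 0.55 ± 0.185, exact permutation p = 0.0195) and *Gpm6a*, a growth-cone membrane glycoprotein (-0.27 ± 0.0996, exact permutation p = 0.0108). Both had an adjusted edgeR p of 0.607. Of the 12 tubulins, 11 had a fold change above 0 with a median of 0.22, against 0.00 for all genes, and 1 was called. These genes were measured in the same rats, so their signs are not read as independent results. *Tubb3*, which is not in this list, went from 0.36 to 0.15 without rat 11 and to 0.07 with the no-feature share as covariate. The median of the tubulins in those settings is not given here. In this comparison 4 of 29 identifiers of microtubule-binding and severing proteins were called, 3 higher and 1 lower, with a median of -0.04. The lower one was at -0.32, while another identifier of the same gene was at -0.04 and not called.

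Between bPYX+NT3 and bPYX+GFP rats, edgeR's quasi-likelihood test called 0 of the 134, against 1.73% of all genes. The likelihood ratio test of edgeR and DESeq2 called 3 each. The share of all genes that they called is not given here, so the 3 are not read as a result about the lists. *Myo5a*, an organelle motor, came nearest (log2 fold change -0.24 ± 0.112, exact permutation p = 0.106), followed by *Nefm*, the middle neurofilament subunit (-0.13 ± 0.0641, exact permutation p = 0.0628), and *Myo9a* (-0.29 ± 0.140, exact permutation p = 0.134). *Gap43*, the growth-cone protein most used as a marker of regrowth, had 3166 to 5087 normalized counts in naïve, 3431 to 4765 in bPYX+GFP and 3832 to 5530 in bPYX+NT3 rats. Its log2 fold changes were -0.09 ± 0.115, 0.04 ± 0.117 and 0.13 ± 0.107, in the order used above for *Stmn2*, with exact permutation p of 0.517, 0.771 and 0.297.

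**Figure D4:**
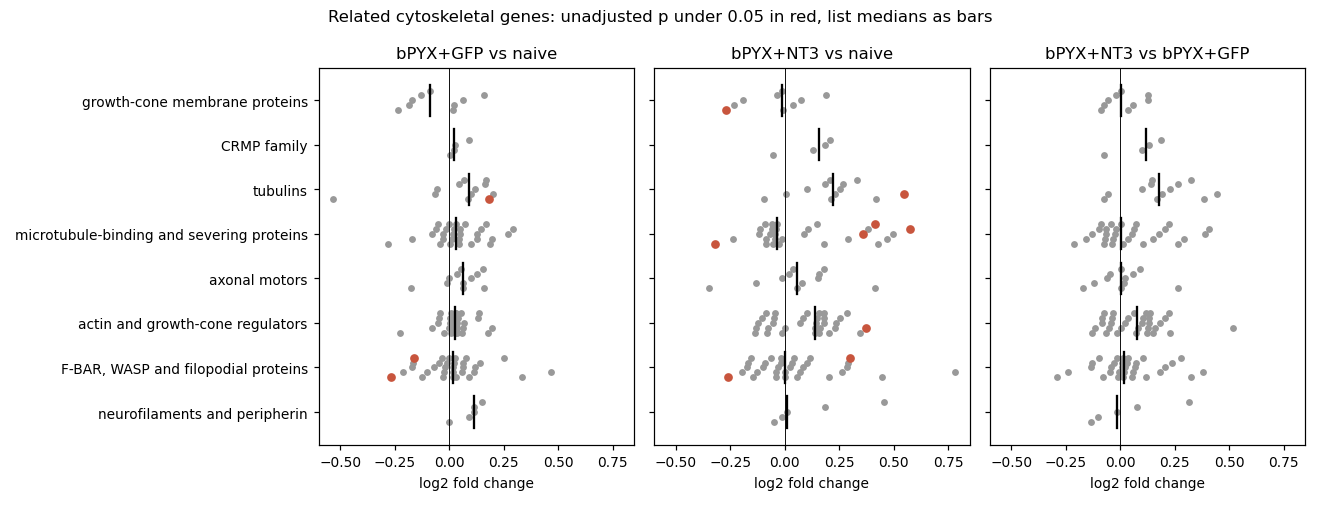
Log2 fold change (horizontal axes) of each tested gene of the 8 related lists in the 3 comparisons, 1 point a gene, with list medians as bars and genes of an unadjusted edgeR p under 0.05 in red. Red points number 3 in bPYX+GFP against naïve, 9 in bPYX+NT3 against naïve and 0 in bPYX+NT3 against bPYX+GFP. The tubulins lie mostly right of 0 in all 3, but the points of a list come from the same rats and are not independent.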

How the data were processed

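Poly(A) libraries of 18 rats were analysed. Per the labels and the study's methods, the authors sequenced 50 bp read pairs from a stranded kit, converted them with bcl2fastq 1.8.4, aligned them with TopHat2 against Rnor_6.0, removed duplicates with Picard and deposited HTSeq counts per RefSeq identifier, whole and not normalized. The strand setting of the counting is not given in the sources used here. Reads on no feature, on several locations or on overlapping identifiers entered neither library sizes nor tests. Between 53.9% and 59.1% of read pairs were thus unassigned. The counts per rat were identical to the columns of the count table in 18 of 18 rats, but 17 of them are attached to a record whose title names another group. The table's columns, matched to the samples by their numbers, set the groups here.

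Of the 15075 identifiers, 14193 were named from a RefSeq table (GRCr8), 203 from gene names in the study's tables (*Gas7* and *Myo10* among them) and 679 were left unnamed. Each pair of groups was fitted in R 4.3.3 with edgeR 4.0.16 (TMM, estimateDisp, glmQLFit, glmQLFTest), over genes that exceeded 10 reads in 6 or more of the 12 rats, which all 8 members with a row passed. P-values are adjusted by Benjamini-Hochberg over all genes tested. They measure the spread between these rats, since ganglia were pooled within but not between rats. For single genes the exact permutation test was two-sided, on TMM-scaled log2 CPM with a prior count of 2, and relations were tested by 100000 permutations within groups. Intervals are the log2 fold change ± 2 SE. Python 3.11.15 with scipy 1.17.1 was used. The fits were tested on simulated data.

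The members and lists were chosen with earlier results of these data known. The genes named were the 10 members, *Gap43*, the 3 related genes of smallest p per comparison and the 3 genes most like *Gas7* and *Myo10*. The result of 1 related gene under this rule is not reported here. The alternatives tried were DESeq2 1.42.0, the likelihood ratio test of edgeR, other scalings and filters, 1 fit over the 3 groups, the no-feature share as a covariate, the attached titles' groups, the replicate number as a block and leaving out each rat. Small RNAs were not used here.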

Additional observations from a re-analysis of the deposited data

Results flagged for a closer look

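Levels of the 8 measured genes were checked in 24 groups of 6 rats for a single rat far from the others, by the ratio of its gap to the group's range (Dixon's test). Chance alone gives such a rat in about 1 in 20 independent groups, and 6 were found in the 24. These 24 reuse the same rats and hold genes that vary together, so an excess over chance cannot be judged from them. In bPYX+NT3 rats, *Gas7* was 8516 normalized counts in rat 17 against 5420 to 6450 in the other 5. *Basp1* was 402 in that same rat against 314 to 344. In bPYX+GFP rats, *Stmn2* was 30849 in rat 52 against 27339 to 28434 in the other 5. *Tubb3* was 10995 in rat 57 against 5893 to 7162, and *Dpysl3* was 2903 in that rat against 1629 to 2022. In bPYX+NT3 rats, *Tubb3* was 13627 in rat 11 against 5725 to 8479. All 6 lay above their groups. Rats 57 and 11 had the lowest shares of unassigned read pairs, and rat 17 (57.1%) lay within the range of the other 16.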

How the results depend on the processing

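Between bPYX+GFP and naïve rats, 377 genes were called at an unadjusted p under 0.05. Adding the no-feature share as covariate gave 848, and 17 after adjustment. With edgeR's likelihood ratio test 13 passed adjustment, and with DESeq2 16. The 0 members called became 1 with DESeq2, 1 with a mean of at least 50 reads, 2 with library size alone and 3 with the covariate, and the 3 related genes became 5 with library size alone and 15 with the covariate. Of all genes, DESeq2 called 373, the mean of at least 50 reads 331 and library size alone 415. Between bPYX+NT3 and naïve rats, the 1 member called became 0 with library size alone and with 1 fit over the 3 groups, and the 9 related genes became 14 with the likelihood ratio test, 16 with DESeq2 and 4 with 1 fit over the 3 groups. The 703 genes called in all became 660 with library size alone and 601 with 1 fit over the 3 groups. The likelihood ratio test called 743 and DESeq2 819. In bPYX+NT3 against bPYX+GFP, the 201 genes became 315 with no filter, where the 1 member called became 0, and 1462 without rats 11 and 57, chosen after seeing the data, where 2 members and 23 related genes were called. The 0 related genes became 3 with DESeq2, the likelihood ratio test, 1 fit over the 3 groups or the covariate, 2 with no filter and 1 with a mean of at least 50 reads. The calls over all genes in these settings, other than no filter, are not given here, so these counts are not read as a result. The cause of the changes was not tested.

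Leaving out 1 rat gave 272 to 595, 365 to 1387 and 95 to 2291 genes called in the 3 comparisons in that order, 0 to 1, 0 and 0 after adjustment, 0 to 1, 0 to 2 and 0 to 2 members, and 2 to 5, 4 to 32 and 0 to 41 related genes. The number of genes called moved by over 1.5 times without rat 57 in bPYX+GFP against naïve (595), without rats 2, 11 (365), 23 (1387), 41, 44, 45 or 49 in bPYX+NT3 against naïve, and without rats 11 (95), 15, 17, 18, 23 or 57 (2291) in bPYX+NT3 against bPYX+GFP.

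With the groups of the titles attached to the per-rat counts, 174, 330 and 263 genes were called in that order, with 1 passing adjustment between bPYX+NT3 and naïve rats. Then 1 related gene and 0 members were called in each. *Stmn1* in bPYX+NT3 against naïve became 0.0853 and *Map1b* in bPYX+NT3 against bPYX+GFP 0.0708, both with the sign turned, and *Gas7* and *Myo10* in bPYX+GFP against naïve became -0.12 and -0.04. In bPYX+NT3 against naïve they turned to 0.05 and 0.10.

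The labels number the rats 1 to 6 in each group, but nothing says that equal numbers share a litter or day. Same-numbered rats correlated over 0.1 in 2, 5 and 3 of 6 pairs, and of the 6 numbers 0, 2 and 2 correlated best with their own. In bPYX+NT3 against naïve rats these r ran from -0.27 to 0.61. With 6 pairs a comparison, such values cannot settle whether equal numbers pair the rats. With the replicate number as a block, 316, 2962 and 130 genes were called in the 3 comparisons. In bPYX+NT3 against naïve rats, 3 members (*Stmn1*, *Tubb3* and *Dpysl3*) and 55 related genes were then called, and between the injured groups 0 members.

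Over the 3 comparisons, a prior count of 0.5 moved no exact test of a member across 0.05. DESeq2's size factors moved the median of all genes by no more than 0.01 and library size alone by up to 0.04 on the log2 scale. *Gas7* and *Myo10* had the same sign under every alternative other than the attached titles. The log2 fold changes of *Stmn1*, *Stmn2*, *Basp1*, *Dpysl3*, *Tubb3* and *Map1b* that were not called crossed 0 under some settings. With 6 rats a group and SDs of up to 35.4% of the mean for *Tubb3*, small differences were not detectable. Reads on several locations were not counted, so genes with near-identical copies, the tubulins among them, are uncertain.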
